A study of Zea mays with 9 samples.

Results

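The genes described here are the 12-oxophytodienoate reductases (OPRs) of maize (Zea mays). They were chosen by description, as the gene Zm00001eb373030 plus every other gene that the count table describes as a 12-oxophytodienoate reductase, and were to be selected on summed count over the 9 libraries, with at most 10 kept. The table of 39755 genes held 9 such genes, Zm00001eb373030 among them, so all 9 were kept and 0 fell outside the limit. The samples were leaves of the cultivar Golden Bantam: soil-grown seedlings of 8 days, from which leaf 2 was cut, infiltrated under a vacuum of 60 mbar and sampled after 6 h. One group of 3 libraries received 5 µM of the peptide Zip1, a signalling peptide (phytocytokine) of maize, and another group of 3 received 2 mM salicylic acid (SA), a plant defence hormone. The mock group of 3 received water with 0.1% dimethyl sulfoxide (DMSO), and whether the other solutions held DMSO is not stated.

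OPRs are flavin enzymes of the old yellow enzyme family that use NADPH to reduce a carbon double bond next to a ketone. Their best known substrate is 12-oxophytodienoic acid, a cyclic oxylipin that lipoxygenases, allene oxide synthase and allene oxide cyclase make from fatty acids in the plastid. After reduction in the peroxisome its side chain is shortened by beta-oxidation to jasmonic acid, the hormone of wound and herbivore responses. Plant OPRs fall into a type that carries out this step, such as OPR3 of Arabidopsis and OPR7 of rice, and a type that accepts the natural isomer poorly and reduces other reactive carbonyl compounds, such as OPR1 of Arabidopsis.

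All 9 genes carried the Pfam domain PF00724 of this family, and the number of other genes in the table with it was 0. The table describes each gene by a protein entry, in each case one from rice. By these entries 2 genes resembled OPR7 (Zm00001eb040310 and Zm00001eb177330), 4 resembled OPR1 (Zm00001eb373030, Zm00001eb373050, Zm00001eb279210 and Zm00001eb131870), 2 resembled the putative OPR5 (Zm00001eb356160 and Zm00001eb356150) and 1 the putative OPR11 (Zm00001eb082050). Which maize gene corresponds to which published maize OPR is not given by the files. Zm00001eb373030 (chromosome 9, 8556872 to 8558569, plus strand, build not stated) and Zm00001eb373050 (8591208 to 8592886, minus strand) face each other across 32638 bases that hold 1 other gene, Zm00001eb373040. The OPR5-like genes lie on opposite strands of chromosome 8 (138444995 to 138446576 for Zm00001eb356150 and 138445261 to 138446881 for Zm00001eb356160) and overlap by 1316 bases. Whether counting used the strand is not given in the sources used here, so the counts of these overlapping genes are uncertain. Reads may also have been divided between the chromosome 9 genes if their sequences are close, which was not tested.

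The libraries held 28840453 to 38794412 counts, and 23077 genes were tested. Leaf markers were present in every group: genes described as pyruvate, phosphate dikinase, an enzyme of mesophyll cells in C4 leaves, took 3.10% to 3.37% of the counts in Zip1 libraries, 3.09% to 3.93% in SA libraries and 3.43% to 4.22% in mock libraries. Genes of the Rubisco small subunit, a bundle sheath protein, took 0.895% to 1.22%, 0.801% to 1.0% and 0.733% to 1.46% in the same groups. In whole leaf tissue, fewer cells of a type and less RNA per cell cannot be told apart.

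Levels between genes were compared as length-scaled transcript abundance (TPM), computed from the counts and gene lengths. In Zip1 leaves Zm00001eb082050 was the most abundant OPR at 49.3 ± 12.2 TPM, followed by Zm00001eb040310 at 30.9 ± 2.75 TPM, and the chromosome 9 genes had 17.5 ± 4.43 TPM (Zm00001eb373030) and 17.0 ± 2.34 TPM (Zm00001eb373050). In SA leaves Zm00001eb373050 stood first at 129.6 ± 16.9 TPM, Zm00001eb082050 had 119.0 ± 9.91 TPM and Zm00001eb373030 had 108.3 ± 31.3 TPM, with overlapping ranges among the 3. Among all 39755 genes by mean TPM, Zm00001eb373050 ranked at 978 in SA leaves, against 13413 in mock leaves. Zm00001eb373030 ranked at 1236 in SA leaves and at 14211 in mock leaves.

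In mock leaves the family summed to 136.3 ± 7.58 TPM (SD, n = 3), and most of it was the OPR11-like gene Zm00001eb082050 at 76.5 ± 5.02 TPM. The OPR7-like genes Zm00001eb040310 and Zm00001eb177330 followed at 23.5 ± 8.52 and 14.5 ± 2.14 TPM, and Zm00001eb131870 at 11.1 ± 5.46 TPM. The ranges of the last 2 overlapped, as did those of the next pair, Zm00001eb373050 at 5.48 ± 3.28 TPM and Zm00001eb373030 at 4.62 ± 1.78 TPM. Zm00001eb279210 and Zm00001eb356160 were below 1 TPM in every mock library, at means of 0.453 and 0.267 TPM, and Zm00001eb356150 had no count in any of them.

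**Figure D1:**
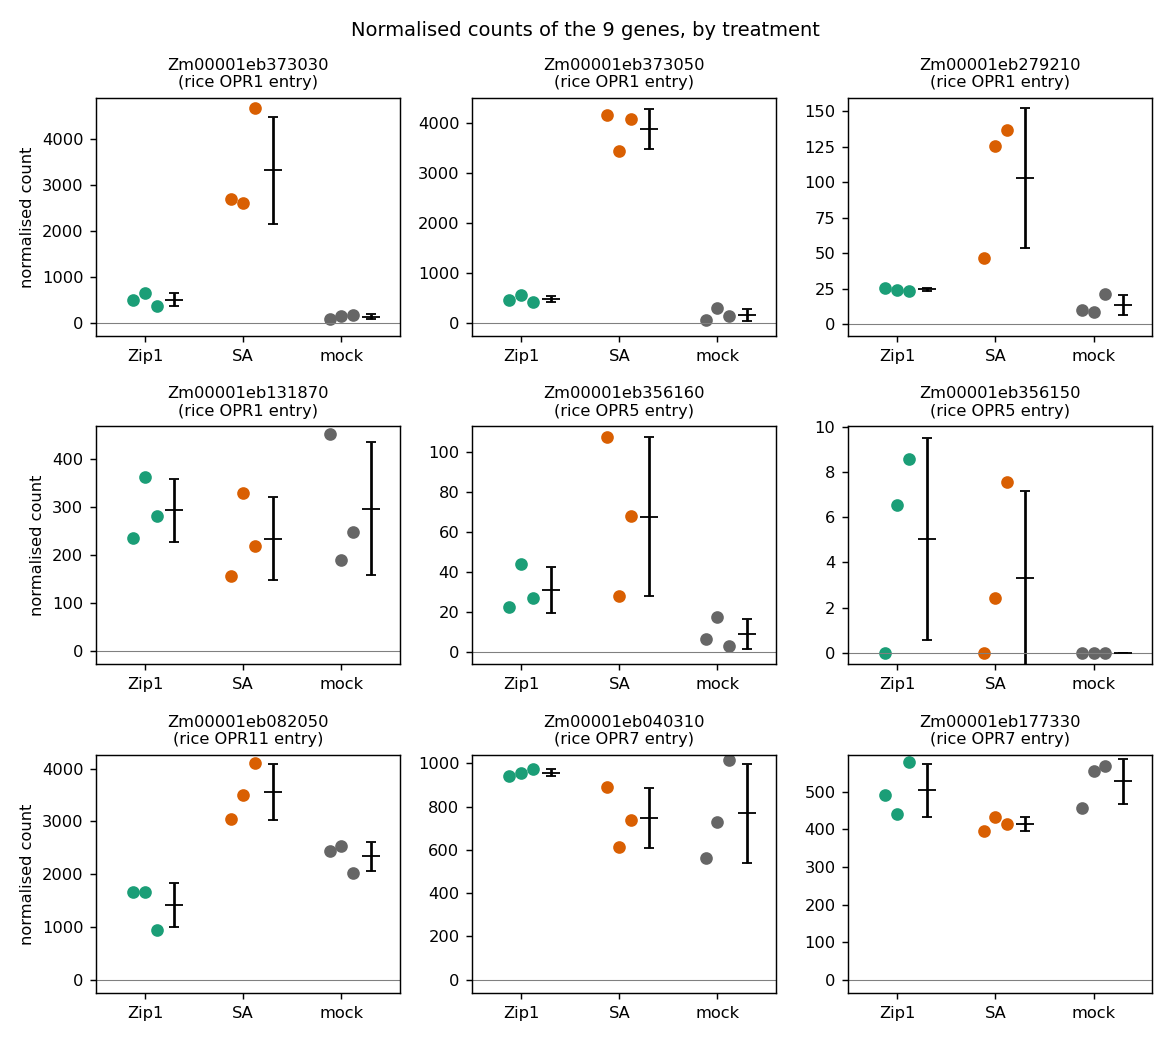
Normalised counts (y axis, linear, a scale of its own in each panel) of the 9 genes in the Zip1, SA and mock libraries; coloured points are libraries, and the black bar beside each group gives the mean and SD of 3 libraries. The SA points stand far above the others for the chromosome 9 genes Zm00001eb373030 and Zm00001eb373050, while those of the OPR7-like genes lie among or just below the rest.

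Zm00001eb373030 was named outright by the rule with earlier results of these data known, so its values are a description and no test is given. Scaled to a common library size, its normalised counts were 508, 654 and 373 in Zip1 leaves (replicates 1 to 3), 2708, 2612 and 4674 in SA leaves, and 85.6, 162 and 183 in mock leaves. All Zip1 libraries lay above all mock libraries, and all SA libraries above all Zip1 libraries. The fitted log2 fold change was 4.54 (SE 0.364) for SA against mock, or 23.2-fold, and 1.83 (SE 0.332) for Zip1 against mock, or 3.56-fold. For Zip1 against SA it was −2.70 (SE 0.332). The 2 comparisons with mock share their mock libraries.

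In the other 8 genes, the comparison of SA with mock asked which reductase transcripts the hormone changed. Differences were tested across all genes with edgeR's quasi-likelihood test, and a gene was called at a Benjamini-Hochberg adjusted p under 0.05. Of these 8 genes, 7 had enough counts to be tested, and 3 of the 7 were called, all higher with SA: Zm00001eb373050, Zm00001eb279210 and Zm00001eb356160. Over all tested genes 6.22% were called, 5.11% as higher and 1.11% as lower. Zm00001eb356160 and Zm00001eb279210 had mock libraries of 6, 16 and 3 and of 10, 8 and 22 counts, so they passed the filter on low counts with the help of their treated libraries, and the count of 3 is therefore a description. In the fit with no filter the count was also 3. With the replicate number as a block the series-wide count was 2220 against 1436, and the count of members was still 3. The count of members was 1 without mock replicate 1 and 1 without SA replicate 3. It was 2 without mock replicate 2 or 3, SA replicate 1 or any single Zip1 library, and 3 without SA replicate 2. The fit on the 6 libraries compared also gave 2. All SA libraries lay above all mock libraries in 4 of the 7 genes, against 13.5% of all tested genes, and below them in 1, against 10.5%. The 4 include Zm00001eb279210 and Zm00001eb356160, so that count is a description too. The median log2 fold change of the 7 was 0.60, beside −0.04 over all tested genes.

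Zm00001eb373050, the neighbour of Zm00001eb373030, had 465, 567 and 437 normalised counts in Zip1 leaves, 4160.2, 3433 and 4079.6 in SA leaves, and 71.0, 304 and 148 in mock leaves. The SA libraries lay more than an order of magnitude above every mock library, among which replicate 2 was the highest. The gene rose 22.4-fold with SA (log2 fold change 4.48, SE 0.437, adjusted p 0.000277 in edgeR's test) and was called in all 15 alternative fits. The gene between this pair, Zm00001eb373040, had 283 ± 57.4, 285 ± 154 and 312 ± 37.1 normalised counts in Zip1, SA and mock leaves (SD, n = 3 each). The TPM ratio of Zm00001eb373050 to Zm00001eb373030 ranged from 0.816 in mock replicate 3 to 1.90 in mock replicate 2, and the SA and Zip1 ratios fell between these.

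The other OPR1-like genes differed from that pair and from each other. Zm00001eb279210 (chromosome 6, 121926296 to 121927981, minus strand) had 25.6, 24.3 and 23.8 normalised counts in Zip1 leaves, 46.6, 125.8 and 136.7 in SA leaves, and 10.4, 8.68 and 21.7 in mock leaves. The groups did not overlap. The gene rose 7.50-fold with SA (log2 fold change 2.91, SE 0.566, adjusted p 0.0112 in edgeR's test). This call is a description, since the gene passed the filter on low counts with the help of its treated libraries. With no filter the adjusted p was 0.00883. Leaving out mock replicate 1, mock replicate 2 or SA replicate 3 ended the call (adjusted p 0.0550, 0.0503 and 0.0537), and the adjusted p ranged from 1.77e-05 to 0.0550 over 15 alternatives. Zm00001eb131870 (chromosome 3, 70588889 to 70591236, minus strand) had 235, 362 and 281 normalised counts in Zip1 leaves, 156, 328 and 219 in SA leaves, and 452, 189 and 247 in mock leaves. Its groups overlapped in every comparison, and no difference was called.

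The OPR5-like gene Zm00001eb356160 passed the filter on low counts through its SA and Zip1 libraries, since its mock libraries held 6, 16 and 3 counts. Its normalised counts were 22.3, 43.9 and 26.6 in Zip1 leaves, 107.3, 27.6 and 67.8 in SA leaves, and 6.26, 17.4 and 2.95 in mock leaves. All mock libraries lay below all treated ones. Its fitted level was 7.56-fold higher with SA (log2 fold change 2.92, SE 0.757, adjusted p 0.0447 in edgeR's test), a call given as a description because the gene was tested only through its treated libraries. With no filter the adjusted p was 0.0380. The call lay close to the threshold: the adjusted p ranged from 0.00182 to 0.155 over 15 alternatives. It was lost without mock replicates 1 and 3 (0.144 and 0.109), SA replicates 1 and 3 (0.155 and 0.112) and each Zip1 library (0.0538, 0.0594 and 0.0612), and in the fit on the 6 libraries compared (0.0718). Its overlapping partner Zm00001eb356150 had 0, 7 and 9 counts in Zip1 libraries, 0, 3 and 7 in SA libraries and 0 in each mock library, and did not enter the fit.

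The OPR11-like gene Zm00001eb082050 (chromosome 2, 48964493 to 48967723, plus strand) had 1662, 1662 and 936 normalised counts in Zip1 leaves, 3056, 3511 and 4103 in SA leaves, and 2445, 2544 and 2027 in mock leaves. Every SA library lay above the mock range and every Zip1 library below it. Against mock neither difference was called: the log2 fold change was 0.60 with SA (SE 0.224, adjusted p 0.161) and −0.72 with Zip1 (SE 0.225, adjusted p 0.195) in edgeR's test. The direct comparison of the treatments called it, as described further on.

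The OPR7-like genes, whose rice counterpart acts in jasmonate synthesis, were not called in any comparison. Zm00001eb040310 (chromosome 1, 212563288 to 212567181, minus strand) had 939.6, 955 and 972 normalised counts in Zip1 leaves, 889, 615 and 737 in SA leaves, and 564, 728 and 1015 in mock leaves. The Zip1 libraries lay close together, inside the mock range and above all SA libraries. Its log2 fold change was −0.04 with SA (SE 0.217, adjusted p 0.949) and 0.31 with Zip1 (SE 0.216, adjusted p 0.662) against mock in edgeR's test. Zm00001eb177330 (chromosome 4, 66336116 to 66340041, plus strand) had 491, 439.7 and 579 normalised counts in Zip1 leaves, 394, 432 and 414 in SA leaves, and 457, 556 and 568 in mock leaves. All its SA libraries lay below all mock libraries, by −0.35 on the log2 scale (SE 0.175, adjusted p 0.319), while the Zip1 and mock libraries overlapped (log2 fold change −0.07, SE 0.174, adjusted p 0.939).

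**Figure D2:**
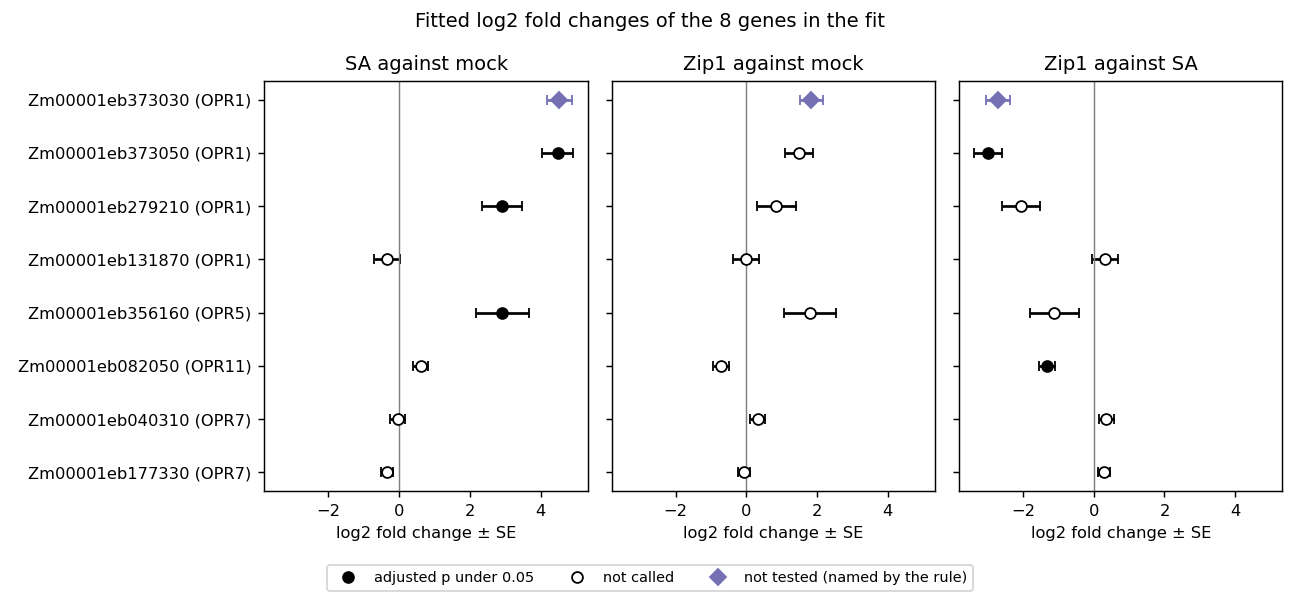
Fitted log2 fold changes (x axis, bars are SE) of the 8 genes in the fit, one row per gene with its rice entry, in the comparisons of SA and of Zip1 with mock and of Zip1 with SA. Filled circles passed an adjusted p under 0.05, open circles did not, and the diamond is Zm00001eb373030, which was not tested; the largest values with SA are 4.54 for Zm00001eb373030 and 4.48 for Zm00001eb373050.

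The comparison of Zip1 with mock asked the same of the peptide. Of the 7 tested genes, 0 were called by edgeR's quasi-likelihood test, while 0.884% of all tested genes were called (0.823% higher and 0.0607% lower). The series-wide count of 204 was 0 without mock replicate 1, 41 without mock replicate 2, and 117, 56 and 102 without Zip1 replicates 1, 2 and 3. With no adjustment, 3 of the 7 and 2652 genes in all had a p under 0.05, and the DESeq2 Wald test called 1 of the 7, Zm00001eb373050. That gene was 2.81-fold higher (log2 1.49, SE 0.395, adjusted p 0.130 in edgeR's test), with all 3 Zip1 libraries above all mock libraries. Without mock replicate 2, its highest mock library, the log2 fold change was 2.16 and the gene was called (adjusted p 0.0464), and the adjusted p ranged from 0.00863 to 0.288 over 15 alternatives. Zip1 libraries lay above all mock libraries in 3 of the 7 genes, against 10.3% of all tested genes, and below them in 1, against 7.35%. The 3 were Zm00001eb373050, Zm00001eb279210 (log2 fold change 0.84, SE 0.553, adjusted p 0.639) and Zm00001eb356160 (1.80, SE 0.742, adjusted p 0.376), which were also the 3 called with SA. Both counts rest on the same mock libraries. Zm00001eb279210 and Zm00001eb356160 also passed the filter on low counts with the help of treated libraries, so the count of genes with Zip1 above mock is a description. The median log2 fold change of the 7 genes was 0.31, beside −0.01 over all tested genes.

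The direct comparison of Zip1 with SA called 2 of the 7 genes, both lower with Zip1. Over all tested genes 4.11% were called, 2.56% as lower and 1.56% as higher. Zm00001eb373050 averaged 489.6 ± 68.3 normalised counts in Zip1 leaves and 3891 ± 399 in SA leaves (SD, n = 3 each), which is 7.94-fold lower with Zip1 (log2 fold change −2.99, SE 0.405, adjusted p 0.00331 in edgeR's test). Zm00001eb082050 averaged 1420.0 ± 419 in Zip1 leaves and 3557 ± 525 in SA leaves, which is 2.50-fold lower with Zip1 (log2 −1.32, SE 0.227, adjusted p 0.00918). Both were called in all 15 alternative fits. Zm00001eb279210 was not called (log2 −2.06, SE 0.541, adjusted p 0.0622). It was called without SA replicate 1 (0.0381) and by the DESeq2 Wald test (0.00444), and over its alternatives the adjusted p reached 0.196. For Zm00001eb356160 the groups overlapped (log2 fold change −1.12, SE 0.693, adjusted p 0.464). The OPR7-like genes Zm00001eb040310 and Zm00001eb177330 each had all Zip1 libraries above all SA libraries, as did 11.5% of all tested genes. Their fitted differences were 0.36 on the log2 scale for Zm00001eb040310 (SE 0.216, adjusted p 0.454) and 0.28 for Zm00001eb177330 (SE 0.175, adjusted p 0.461). In 3 of the 7 genes all Zip1 libraries lay below all SA libraries, against 12% of all tested genes. The median log2 fold change of the 7 genes was −1.12, the value of Zm00001eb356160, beside 0.01 over all tested genes. The genes went both ways: Zm00001eb131870 (log2 fold change 0.32) and the OPR7-like genes had positive values.

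As a description with Zm00001eb373030 included, the summed level of the 9 genes was 143.3 ± 15.2 TPM in Zip1 leaves, 406 ± 40.4 TPM in SA leaves and 136.3 ± 7.58 TPM in mock leaves (SD, n = 3 each). The sum with SA was 2.98 times that in mock leaves, and the sum with Zip1 was 1.05 times it. The make-up of the sum also differed. The chromosome 9 pair made up 22.7%, 26.1% and 22.8% of it in Zip1 leaves, 59.9%, 54.5% and 60.6% in SA leaves, and 3.82%, 10.5% and 8.00% in mock leaves. Zm00001eb082050 took 34.2% ± 6.57 in Zip1 leaves, 29.4% ± 2.59 in SA leaves and 56.2% ± 5.68 in mock leaves. The share of the OPR7-like pair was 32.4% ± 6.45 in Zip1 leaves, 8.64% ± 1.47 in SA leaves and 27.7% ± 6.33 in mock leaves. Its summed level was 45.9 ± 5.52, 34.9 ± 5.49 and 38.01 ± 10.7 TPM in Zip1, SA and mock leaves, so that its lower share in SA leaves stood beside a larger family total.

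**Figure D3:**
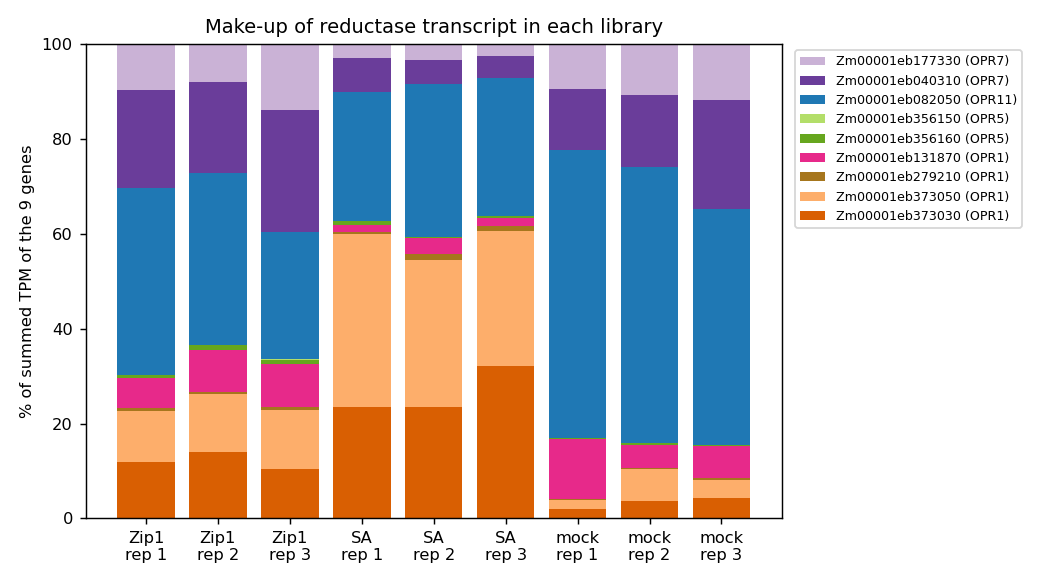
Share of the summed TPM of the 9 genes (y axis, percent) taken by each gene in each Zip1, SA and mock library; each bar is 1 library and each colour 1 gene with its rice entry. The chromosome 9 pair at the foot of the bars takes 54.5% to 60.6% in SA libraries, and Zm00001eb082050 takes 49.9% to 60.7% in mock libraries.

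The genes whose levels ran most like Zm00001eb373030 were ranked by Pearson correlation of log2 library-scaled counts over the 9 libraries, which share their 3 treatment groups. Among the highest of the described genes were Zm00001eb142350 (thiamine pyrophosphokinase 1), Zm00001eb025550 (serine carboxypeptidase-like 18), Zm00001eb122610 (UDP-glycosyltransferase 73C3) and Zm00001eb318570 (UDP-glucosyltransferase UGT13248), with r between 0.993 and 0.995. Of these, Zm00001eb318570 had the widest span, at 2627 ± 1164 normalised counts in Zip1 leaves, 64657 ± 28667 in SA leaves and 263 ± 151 in mock leaves. Zm00001eb142350 spanned much less, at 156 ± 26.6, 342 ± 61.4 and 91.8 ± 9.95. Among the OPRs, Zm00001eb373050 had an r of 0.979, which ranked at 32 among the tested genes, then Zm00001eb279210 at 0.928, Zm00001eb356160 at 0.822 and Zm00001eb082050 at 0.511. The remaining values were 0.01 for Zm00001eb040310, −0.37 for Zm00001eb131870 and −0.71 for Zm00001eb177330. These r values follow the treatment means and carry no p.

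The steps before and after the reductase were read from 7 lists of description words, which held 120 tested genes. Some of these, such as Zm00001eb048770 described below, passed the filter on low counts through their treated libraries. The counts of list genes called are therefore descriptions. With SA 14 of the 120 were called, or 11.7%, of which 11 were higher and 3 lower, beside 6.22% of all tested genes. The count was 24 with the replicate number as a block, 29 with the DESeq2 Wald test (22 higher and 7 lower), and leaving out mock replicate 1, mock replicate 2 or SA replicate 3 gave 6, 9 and 8. With Zip1 3 of the 120 were called, or 2.5%, all higher, beside 0.884% of all tested genes. The DESeq2 Wald test called 20 (16 higher and 4 lower) and the block fit 11, and the count was 0 without mock replicate 1 or Zip1 replicate 1 and 1 without mock replicate 2 or Zip1 replicate 2. Across the 120 genes the median log2 fold change was 0.21 with Zip1 and 0.00 with SA, beside −0.01 and −0.04 over all genes. Between Zip1 and SA 8 genes differed, or 6.67%, beside 4.11% of all tested genes, with 7 higher and 1 lower with Zip1. The DESeq2 Wald test called 25 (19 higher and 6 lower) and the block fit 17. The edgeR count was as low as 3 without SA replicate 2 or Zip1 replicate 3. It was 4 without SA replicate 3, and 5 without SA replicate 1, Zip1 replicate 1 or Zip1 replicate 2.

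Upstream of the reductase, 1 of 15 tested genes for fatty acid supply (phospholipases A1 and omega-3 desaturases) and 1 of 13 lipoxygenases were higher with SA. Over all tested genes 5.11% were called higher and 1.11% lower with SA. With the replicate block the fatty acid supply and lipoxygenase lists had 3 and 3 calls. The lipoxygenase list also held genes described as linoleate 9S-lipoxygenases, which lie outside the step toward 12-oxophytodienoic acid, so its counts do not describe that step alone. The fatty acid supply count was 0 without any mock library, SA replicates 2 and 3 or Zip1 replicate 2, each left out singly, and 2 without Zip1 replicate 3. The lipoxygenase count was 0 without mock replicate 1 or SA replicate 1. The lipoxygenase with the highest counts, Zm00001eb206040, named here after its values were seen, was lower with SA but not called. Its log2 fold change was −0.89 (SE 0.252, adjusted p 0.0647 in edgeR's test), beside a list median of 0.22. Of 6 allene oxide enzymes 1 was called, Zm00001eb009340, described as allene oxide synthase 2, which makes the unstable epoxide ahead of 12-oxophytodienoic acid. It averaged 444 ± 46.5 normalised counts in Zip1 leaves, 232 ± 71.1 in SA leaves and 531 ± 73.2 in mock leaves (SD, n = 3 each). It had a log2 fold change with SA of −1.196 (SE 0.246, adjusted p 0.0150 in edgeR's test). Its call was lost without mock replicate 1 (adjusted p 0.0575, the highest of 15 alternatives, with a lowest of 0.000341). The tested genes described as allene oxide synthase 1, Zm00001eb214000 and Zm00001eb058670, were higher with SA but not called. Their log2 fold changes were 1.25 (SE 0.406, adjusted p 0.109 in edgeR's test) and 1.07 (SE 0.437, adjusted p 0.208). Zm00001eb058670 is named here after its values were seen. The median of the allene oxide list was 0.29 with SA. With Zip1 0 genes of these 3 lists were called by edgeR's test, and the DESeq2 Wald test called 1, 2 and 1. An unadjusted p under 0.05 in edgeR's test was found for 2, 6 and 4 of them, beside 2652 of all 23077 tested genes. Without SA replicate 3, 1 lipoxygenase was called.

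Downstream, 5 of 30 genes for peroxisomal import and beta-oxidation were called with SA, 3 higher and 2 lower, and 9 with the replicate block. The count was 2 without mock replicate 2 or SA replicate 3, and 3 without mock replicate 1, Zip1 replicate 2 or Zip1 replicate 3. Zm00001eb002570, a 4-coumarate--CoA ligase-like gene, from a family that includes enzymes activating jasmonate precursors, rose to 2680 ± 351 normalised counts in SA leaves, against 807 ± 310.0 in mock leaves (log2 fold change 1.73, SE 0.296, adjusted p 0.00550 in edgeR's test). Zm00001eb340720, a beta-oxidation multifunctional protein that hydrates and oxidises the acyl chain, fell to 6112 ± 231 in SA leaves, against 10424 ± 542 in mock leaves (−0.77, SE 0.144, adjusted p 0.00891). With Zip1 1 of these 30 was called, beside 0.884% of all tested genes. That gene was Zm00001eb379490, a peroxisomal acyl-coenzyme A oxidase, the enzyme of the opening beta-oxidation step. It averaged 902 ± 172 normalised counts in Zip1 leaves and 331 ± 84.5 in mock leaves (log2 fold change 1.45, SE 0.224, adjusted p 0.0203). That call was lost without mock replicate 1, Zip1 replicate 1 or Zip1 replicate 3, with an adjusted p of up to 0.113.

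Among genes that conjugate, remove or mark jasmonate, 2 of 30 were called with SA and 1 of 30 with Zip1, all higher. Of 18 JAZ repressors of the TIFY family, which hold jasmonate responses off, 4 were called higher with SA and 1 with Zip1. Over all tested genes 5.11% were called higher with SA and 0.823% with Zip1. The list counts are descriptions, as stated above. Unadjusted p-values gave another order: of the 30 genes, 12 had a p under 0.05 with Zip1 and 5 with SA. The median log2 fold changes of the 30 were 0.29 with Zip1 and −0.09 with SA. Over all 23077 tested genes, 2652 had such a p with Zip1 and 4371 with SA. Of the 18 JAZ genes, 10 had such a p with Zip1 and 8 with SA, with medians of 0.86 with Zip1 and 0.62 with SA. Whether the treatments differ over these lists was not tested. The conjugation and turnover count with SA was 0 without mock replicate 1, mock replicate 3, SA replicate 1 or SA replicate 3, and 1 without mock replicate 2 or any single Zip1 library. With Zip1 it was 0 without mock replicate 1 or 2 or Zip1 replicate 1 or 2, and 3 without mock replicate 3. The JAZ count with SA stayed between 3 and 5. The JAZ gene with the lowest p for SA was Zm00001eb048770, described as TIFY 11e, with 32.0 ± 9.28 normalised counts in Zip1 leaves, 111.3 ± 38.7 in SA leaves and 7.01 ± 5.55 in mock leaves (SD, n = 3 each). Its log2 fold change with SA was 3.97 (SE 0.644, adjusted p 0.00389 in edgeR's test). With so low a mock level it passed the filter on low counts through treated libraries, so the call is a description. The neighbouring Zm00001eb048780, also called with SA and named here after its values were seen, shares the description TIFY 11e. Reads may therefore have been divided between these neighbours. Zm00001eb100130, described as TIFY 10c, rose to 402 ± 83.2 in Zip1 leaves, against 109 ± 37.6 in mock leaves (log2 fold change 1.88, SE 0.332, adjusted p 0.0305). Leaving out any mock library or either of Zip1 replicates 1 and 2 ended the call, with an adjusted p of up to 0.149. Of 8 genes for the receptor COI1 and the transcription factor MYC2, 0 were called in either comparison with mock, 1 had an unadjusted p under 0.05 with SA and 2 with Zip1, and the DESeq2 Wald test called 0 with SA and 1 with Zip1.

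**Figure D4:**
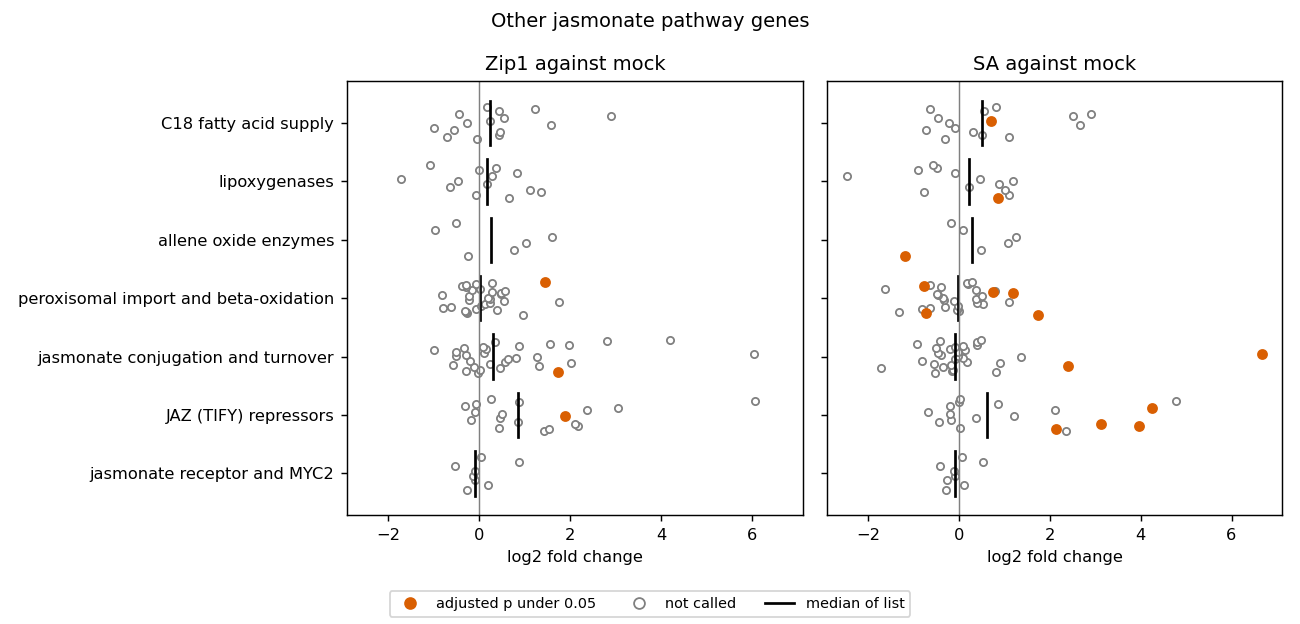
Log2 fold changes (x axis) of 120 tested genes in 7 jasmonate pathway lists for Zip1 against mock and SA against mock; each point is 1 gene, orange points passed an adjusted p under 0.05, and black bars are list medians. Of the 18 JAZ repressors, 1 passed with Zip1 and 4 with SA.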

How the data were processed

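RNA of 9 leaf libraries was sequenced after poly-A selection and random hexamer priming, per the labels' protocols. The authors deposited raw counts per gene, with no pooling of replicates. The submitters' processing notes name HISAT2 2.0.5, featureCounts 1.5.0-p3 and DESeq2 1.20.0, with no role or order. The genome build and strand setting are not given in the sources used here. A deposited FPKM table was not used, because 44.9% of its cells held no usable decimal point. Gene and protein sequences were not analysed here, and identifiers were used as the count table gives them.

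Counts were tested with edgeR 4.0.16 in R 4.3.3 (filterByExpr on the 3 groups, TMM, glmQLFit and glmQLFTest with robust estimation, group as the only term, all 9 libraries, Benjamini-Hochberg adjustment over 23077 genes). Alternatives were other scaling, no filter, DESeq2 1.42.0, the 6 libraries compared, a replicate block, each library left out and a stricter threshold. Each SE is the size of the log2 fold change divided by the root of its F statistic. Normalised counts are scaled to the mean effective library size, and TPM uses the deposited gene length. List words were matched in the protein entry's name and also take in some proteins outside the pathway step. Examples are jasmonate-induced proteins of unknown role and linoleate 9S-lipoxygenases. All members are named, as are at most 2 genes per list with the lowest p in each comparison with mock and the 5 described genes most correlated with Zm00001eb373030, of which 1 is not reported here. Members and lists were chosen with earlier results of these data known.

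The labels number the replicates, and whether same-numbered libraries were paired is not stated. Deviations of same-numbered SA and mock libraries from their group means correlated at r = 0.154, 0.164 and 0.130. Those of differently numbered ones ran from −0.0968 to −0.0463. Because deviations within a group cancel for each gene, these values partly follow from the same-numbered ones. The main fit did not use the numbers. Nothing in the labels says that the libraries came from separate plants, so p-values measure only the spread between them. No pair within a group agreed within counting noise (chi-square per degree of freedom 47.7 to 105). No molecular identifiers were used, so reads are not independent molecules.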

Additional observations from a re-analysis of the deposited data

How the results depend on the processing

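The count of tested OPR genes called was recomputed in 15 refits and at an adjusted p under 0.01. At that threshold 1 gene was called for SA against mock. For Zip1 against mock the DESeq2 Wald test called 1. The fits that left out 1 library gave 1 to 3 calls for SA against mock, 0 to 1 for Zip1 against mock and 2 to 3 for Zip1 against SA. For SA against mock the series-wide count was 2449 with DESeq2, 2220 with the replicate block, 662 at the stricter threshold and 839 to 1414 with 1 library left out. For Zip1 against mock it was 930, 574, 4 and 0 to 243, and for Zip1 against SA 2037, 1553, 296 and 456 to 960. Same-numbered libraries also correlated positively for Zip1 and mock (0.160, 0.0745 and 0.158) and for Zip1 and SA (0.0759, 0.157 and 0.0870). Differently numbered ones ran from −0.187 to 0.0435 and from −0.131 to 0.0387, values that again partly follow from the same-numbered ones. The block changed no call among the OPR genes. For SA against mock the series-wide count was 887, 886 and 839 without mock replicate 1, mock replicate 2 and SA replicate 3. For Zip1 against SA it was 590 and 509 without SA replicates 1 and 3, and 498, 609 and 456 without Zip1 replicates 1, 2 and 3.

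Among the OPR genes the values that changed sign were uncalled ones. Zm00001eb131870 with Zip1 had a log2 fold change of 0.0704 with no scaling factor and ran from −0.26 to 0.42 with 1 library left out, and with SA from −0.64 to 0.10. Zm00001eb177330 with Zip1 had 0.0183 with no scaling factor and ran from −0.18 to 0.0217. Zm00001eb040310 with SA ran from −0.23 to 0.21. The test on the FPKM table was not run. Genes under about 20 counts per library, such as Zm00001eb356150 and the mock level of Zm00001eb356160, are limited by depth.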
